A study of Mus musculus with 10 samples.

Results

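The livers described here came from female mice of the inbred strain DBA/2J (D2), either fed a diet high in fat and cholesterol for 1, 4, 12 or 21 weeks or taken at week 0 of that diet. They account for 5 of the 10 arrays of the series, 4 fed arrays and 1 week 0 array, and were chosen by strain and week alone. The other 5 arrays hold livers of female C57BL/6J (B6) mice on the same diet at the same weeks, and enter here through the normalisation, the filter on low signal, the estimate of the spread and the comparison of responses between strains. Each was an Affymetrix mouse expression array, which reports a signal intensity for each probe set (a group of probes for one transcript), hybridised with RNA pooled in equal amounts from the livers of 5 mice. The labels give no age, so age and time on the diet cannot be told apart, and what the mice ate before week 0 is not given in the sources used here.

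A liver that takes up dietary cholesterol is known to lower its own sterol synthesis, which the transcription factor SREBP-2 drives when membrane sterol is low, and to raise the genes of the liver X receptors (LXR), which sense oxysterols and turn on sterol export and lipogenesis. Surplus cholesterol leaves the liver as bile acids, made by a set of cytochromes P450, and as sterol pumped into bile. Many liver genes also follow the circadian clock and the feeding state, so both the hour and the last meal before collection bear on a liver array.

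Hepatocyte transcripts were abundant on all 5 D2 arrays. Albumin (Alb), transthyretin (Ttr), apolipoprotein A-I (Apoa1) and the urea cycle enzyme Cps1 had deposited signals of at least 5123 on every D2 array. The summed signal of the 11 hepatocyte markers was 53500 to 59300 on the fed arrays, against 52900 at week 0. The week 0 array was dimmer: its 2% trimmed mean was 56.9, against 68.9, 71.1, 82.9 and 83.8 on the arrays of weeks 1, 4, 12 and 21. The B6 week 0 array was dimmer too, at 56.2, against 75 to 89.1 on the fed B6 arrays, and the reason was not tested. The arrays were therefore quantile normalised, and values below are log2(signal + 1.05) unless they are called deposited signals. On the authors' own scale the median gene stood 0.434 (log2) higher in fed livers, and 0.195 higher when each array was centred on its median, so directions of small shifts depend on the scaling.

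After normalisation, each fed array differed from week 0 by at least 2-fold (1 on the log2 scale) for a similar number of genes. Of 11059 genes tested, 340, 391, 390 and 403 were at least 2-fold above week 0 at weeks 1, 4, 12 and 21, and 352, 371, 402 and 352 were at least 2-fold below it. Correlations of the fed arrays with week 0 across genes were 0.957 to 0.962, and those among the fed arrays were 0.97 to 0.982, so every fed array was nearer to the other fed arrays than to week 0. Fed arrays stood above week 0 at all 4 weeks for 3032 genes (27.4%) and below it at all 4 for 2921 genes (26.4%). At least 2-fold in all 4 weeks, 145 genes lay above week 0 (1.31%) and 61 below it (0.552%). Of the 145, 120 had a deposited signal under 15 on the week 0 array, where the median over all genes tested was 69.3. Of the 61, 7 had a signal under 15 on all fed arrays. That count required every fed array to be dim, and the one for the 145 only the week 0 array, so they cannot be compared. The filter on low signal used the mean over all arrays of both strains, most of them fed. It therefore kept genes dim only at week 0 more readily than genes dim only in fed livers. Its part in the difference between 145 and 61 was not tested.

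The comparison of fed D2 livers with week 0 asks which genes differ beyond the spread between arrays, with the 4 weeks serving as replicates and the lone week 0 array assumed to vary like the fed arrays. By limma with Benjamini-Hochberg adjustment over all genes, 13 of 11059 genes rose in fed livers (0.118%) and none fell (0%). At an unadjusted p under 0.05 there were 1263 genes, 736 higher (6.66%) and 527 lower (4.77%). When the D2 arrays were both quantile normalised and fitted without the B6 arrays (3 residual degrees of freedom), 15 genes passed, 11 higher and 4 lower. These held 5 of the 13. A fit of the D2 arrays alone after the shared normalisation held 6 of the 13. The 13 genes were the clock output factor Dbp, the fatty acid desaturase Scd1 and 11 genes of low signal at week 0. Genes were kept by their mean over all 10 arrays (above 3.74 on the log2 scale), and 9 of the 13 lay under that value at week 0, so they entered the test through the other arrays. Of all genes tested, 438 lay under it at week 0 and 236 in the mean of the fed D2 arrays. With no such filter 8 genes passed, all higher.

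Dbp, a transcription factor that carries the daily rhythm to liver genes, had log2 signals of 10.24, 10.10, 10.53 and 10.33 at weeks 1, 4, 12 and 21, against 5.97 at week 0. Its deposited signals were 1116, 1052, 1700 and 1385 in fed livers, against 44.6 at week 0. The 4 fed arrays sat close together and far from week 0. The rise was 4.33 ± 0.60 (SE; limma adjusted p = 0.035), a 20.1-fold difference. A second probe set of Dbp gave 696, 730, 1241 and 982 in fed livers, against 34.2 at week 0. The call was lost when any 1 of the 4 fed D2 arrays or the B6 array of week 21 was left out, while the change itself lay between 4.04 and 4.82 under the alternatives run.

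Scd1, the enzyme that puts the double bond into stearic acid and a target of LXR, was already among the brightest genes at week 0. Its deposited signals were 5633, 6566, 5577 and 6424 in fed livers, against 2022 at week 0. All fed arrays stood above week 0, and the rise was 1.29 ± 0.12 on the log2 scale (limma adjusted p = 0.00315), or 2.45-fold. A second Scd1 probe set read 795, 1422, 695 and 1695 in fed livers, against 147 at week 0. The call was lost, with a limma adjusted p of at most 0.0552, when arrays were centred on their medians or when both probe sets were averaged.

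The other 11 genes had week 0 signals under 15, near the bottom of the scale. Sipa1, a protein that switches off the small GTPase Rap1, had deposited signals of 28.9, 38.5, 29.1 and 47.4 in fed livers, against 2.04 at week 0, a rise of 3.39 ± 0.31 on the log2 scale (limma adjusted p = 0.00316). Its relative Sipa1l2 had 34.1, 39.9, 62.5 and 45.1 in fed livers, against 2.85 at week 0, a rise of 3.35 ± 0.30 (limma adjusted p = 0.00315). P2ry1, a receptor for ADP, read 21.8, 19.1, 15.6 and 36.2 in fed livers, against 1.05 at week 0. For these genes no fed value overlapped week 0, and the folds depend on a week 0 value close to the pseudocount. At week 0 Sipa1, Sipa1l2 and P2ry1 read 1.79, 2.15 and 1.145 (log2) in D2, against 4.82, 4.30 and 4.30 in B6. Their B6 fed means were 5.385, 4.77 and 4.575. The D2 week 0 array was thus low against the B6 arrays as well, and the reason was not tested.

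Slc5a6, the sodium-dependent transporter of biotin and pantothenate, read 31.4, 35.7, 42.4 and 41.4 in fed livers, against 7.23 at week 0, a rise of 2.02 ± 0.26 on the log2 scale (limma adjusted p = 0.0275). Tmem63a, a cation channel of the membrane, rose by 2.30 ± 0.24 (limma adjusted p = 0.00683). Wdr90, Rnf39 and Adarb1, the last an RNA-editing adenosine deaminase, rose by 3.26, 2.25 and 2.77. At week 0 Rnf39 and Adarb1 read 2.56 and 2.12 (log2) in D2, against 4.49 and 3.76 in B6. Cabin1, which binds calcineurin, and Emd, the nuclear envelope protein emerin, rose by 1.85 and 1.61; they lie outside the rule for named genes and were named after their values were seen. With a pseudocount of 16, 2 genes passed, Clcn5 and Scd1. With a floor of 32 under all signals, Dbp, Clcn5 and Scd1 were the 3 of the 13 that passed, among 186 genes called, 170 of them lower. Clcn5, Sipa1, Sipa1l2, P2ry1, Tmem63a and Scd1 passed whichever single array other than D2 week 0 was left out. The D2 week 0 array, on which all these changes rest, cannot be left out.

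Clcn5, the endosomal chloride and proton exchanger, was the one gene that passed the test of a difference in response between the strains. Its log2 signals were 6.89, 7.10, 6.35 and 6.96 at weeks 1, 4, 12 and 21, against 3.32 at week 0, a rise of 3.51 ± 0.25 (limma adjusted p = 0.00133). In B6 livers it read 7.37 at week 0 and 7.21 in the mean of the fed arrays, a change of -0.16. The D2 week 0 array was thus the low one, while fed D2 livers lay near the B6 level. The D2 minus B6 difference in response was 3.67 ± 0.36 (limma adjusted p = 0.0203), 1 of 11059 genes (0.00904%), with 672 at an unadjusted p under 0.05. This value comes from 1 probe set of a kind that can bind several transcripts. The 3 other Clcn5 probe sets gave changes of -0.02, -0.34 and 0.08, and the call was lost when all probe sets of the gene were averaged. The call of the strain difference was lost when any fed array other than the D2 array of week 12 was left out. Of the 13 genes, 8 were read by a single probe set, and for Adarb1 and Cabin1 the other probe sets gave changes of -0.75 and 1.76, and of 0.27 and 0.08.

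**Figure D1:**
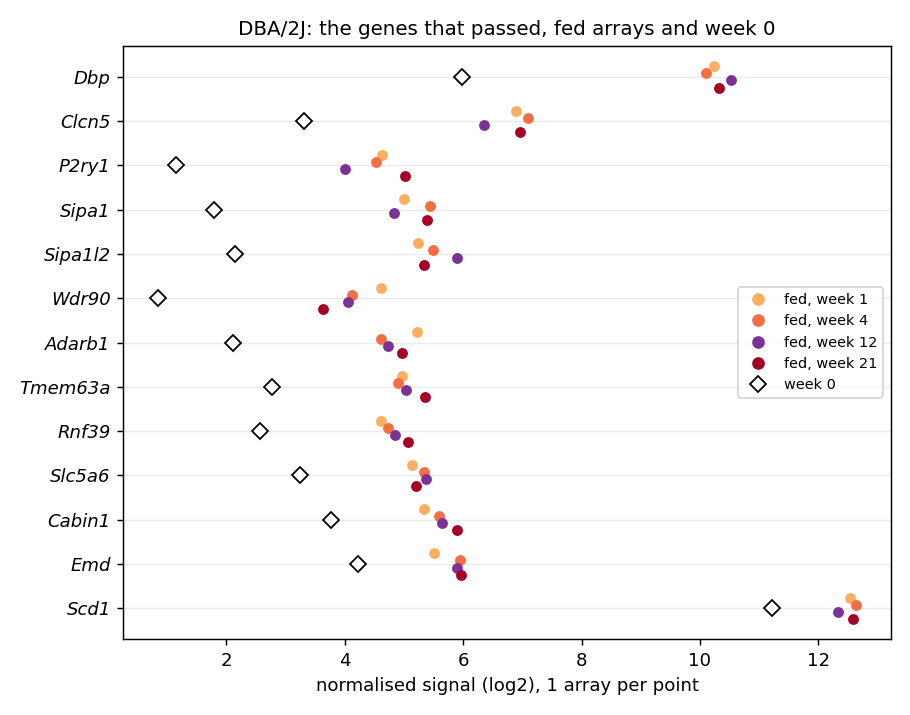
Normalised log2 signal (x axis) of the 13 genes that rose in fed D2 livers (rows), 1 point per array; circles are the fed arrays of weeks 1, 4, 12 and 21 and diamonds the week 0 array. Scd1 and Dbp lie at high signal in fed livers, while the others start from week 0 values under 15 in deposited signal.

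No gene passed in the downward direction. Those with the smallest p that lay below week 0 in all 4 fed arrays are given by value. St3gal1, a sialyltransferase of the Golgi, read 6.87, 6.96, 6.88 and 6.67 (log2) in fed livers, against 8.03 at week 0, a change of -1.19 ± 0.18 (limma adjusted p = 0.0572). Ccng2, cyclin G2, read 7.11, 7.19, 6.76 and 7.05 in fed livers, against 8.57 at week 0 (-1.55 ± 0.26; limma adjusted p = 0.0694). Pxmp4, a peroxisomal membrane protein, read 8.88, 8.79, 8.85 and 8.81 in fed livers, against 10.14 at week 0 (-1.31 ± 0.23; limma adjusted p = 0.0806). The other 7 were Scpep1 (-0.94), the vasopressin receptor Avpr1a (-1.31), Syt11 (-1.75), the arginine methyltransferase Prmt3 (-0.95), C730049O14Rik (-1.47), the signalling adaptor Tab2 (-1.16) and Abtb2 (-1.57), with limma adjusted p-values of 0.0806 to 0.0985. When all probe sets of a gene were averaged, St3gal1 and Prmt3 no longer lay lower.

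The spread behind these tests is shared with the B6 arrays, whose median SD among fed weeks was 0.237, against 0.192 for D2. In a fit on the 5 D2 arrays alone (3 residual degrees of freedom), 16 genes passed, 12 higher and 4 lower. They included 6 of the 13 genes above (Dbp, Clcn5, Sipa1l2, Scd1, Sipa1 and Slc5a6), and added the clock genes Nr1d2, Per3 and Nr1d1 among the higher and Pxmp4 and the kinase gene Pdk4 among the lower.

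The circadian clock works as a loop in which CLOCK and ARNTL (BMAL1) turn on the Per, Cry and Nr1d genes, whose products turn CLOCK and ARNTL off. Of its 17 genes tested, 11 lay above week 0 in all 4 fed arrays and 4 below it in all 4, or 64.7% and 23.5%, against 27.4% and 26.4% of all genes; 5 were at least 2-fold above in all 4 and 2 at least 2-fold below. One passed, Dbp, and 6 higher and 4 lower had an unadjusted p under 0.05 (35.3% and 23.5%, against 6.66% and 4.77% of all genes). The median change of the list was 0.715, against 0.00314 for all genes.

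Of the repressor arm, Per3 read 7.59, 7.02, 7.67 and 7.27 in fed livers, against 4.46 at week 0, a change of 2.93 ± 0.46 (limma adjusted p = 0.0645). Nr1d1, the nuclear receptor REV-ERB alpha that represses Arntl, read 6.88, 7.34, 6.69 and 7.27 in fed livers, against 4.34 at week 0 (2.70 ± 0.58; limma adjusted p = 0.131). In the fit on the D2 arrays alone both passed, with limma adjusted p-values of 0.0222 for Per3 and 0.0226 for Nr1d1. Nr1d2, its paralog, named after its values were seen, had an SD among fed arrays of 0.093 around a mean of 9.78, against 7.92 at week 0, and a limma adjusted p of 0.0806 in the shared fit and 0.011 in D2 alone. Cry1, a repressor of the same arm, also named after its values were seen, went the other way, with 4.69, 5.02, 5.27 and 6.08 in fed livers, against 7.73 at week 0 (-2.47 ± 0.77; limma adjusted p = 0.271).

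Ciart, a repressor of CLOCK and ARNTL, was less even, with 6.74, 4.45, 7.11 and 4.63 in fed livers, against 3.10 at week 0. Weeks 1 and 12 stood high and weeks 4 and 21 nearer to week 0. Of the activator arm, Arntl read 4.22, 4.63, 3.34 and 4.99 in fed livers, against 6.94 at week 0 (-2.64 ± 0.65; limma adjusted p = 0.19). All fed values were below week 0, and week 12 was lowest. Each of Dbp, Per3, Nr1d1, Nr1d2, Cry1, Ciart and Arntl lay on the same side of week 0 at all 4 weeks, week 1 included. The hour at which the livers were collected is not given in the labels, and its part in these values was not tested.

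The promoters of the genes of this list were searched for the elements through which the loop acts, and 1 promoter is shown for each element. Sequences are from RefSeq, build GRCm38.p6, 300 bases around the annotated start, 5′ to 3′. In Per3 the capitals mark TTATGTAA, a form of the D-box bound by DBP and its relatives. In Ciart they mark CACGTG, the E-box bound by CLOCK and ARNTL.
Per3 promoter, chr4:151044616-151044915, minus strand: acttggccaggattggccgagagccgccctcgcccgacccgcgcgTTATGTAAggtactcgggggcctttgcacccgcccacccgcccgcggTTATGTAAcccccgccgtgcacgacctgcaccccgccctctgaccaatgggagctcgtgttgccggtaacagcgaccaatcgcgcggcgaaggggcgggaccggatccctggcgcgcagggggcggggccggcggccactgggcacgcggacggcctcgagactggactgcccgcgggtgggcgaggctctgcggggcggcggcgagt
Ciart promoter, chr3:95882179-95882478, minus strand: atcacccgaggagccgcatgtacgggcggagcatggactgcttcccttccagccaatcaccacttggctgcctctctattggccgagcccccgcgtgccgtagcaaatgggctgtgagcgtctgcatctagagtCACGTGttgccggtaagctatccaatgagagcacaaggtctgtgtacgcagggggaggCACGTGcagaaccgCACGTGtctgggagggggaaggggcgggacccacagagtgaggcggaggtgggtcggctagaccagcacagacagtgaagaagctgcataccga
Per3 was the only one of 15 clock genes with a promoter in the table that held TTATGTAA on either strand, and held it 2 times, while 0.938% of 32851 promoters did. CACGTG, which reads the same on both strands, occurred 3 times in Ciart and also in Cry1, Per1 and Tef, and in 7.15% of all promoters. No match in this window says only that these letters are not in it.

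**Figure D2:**
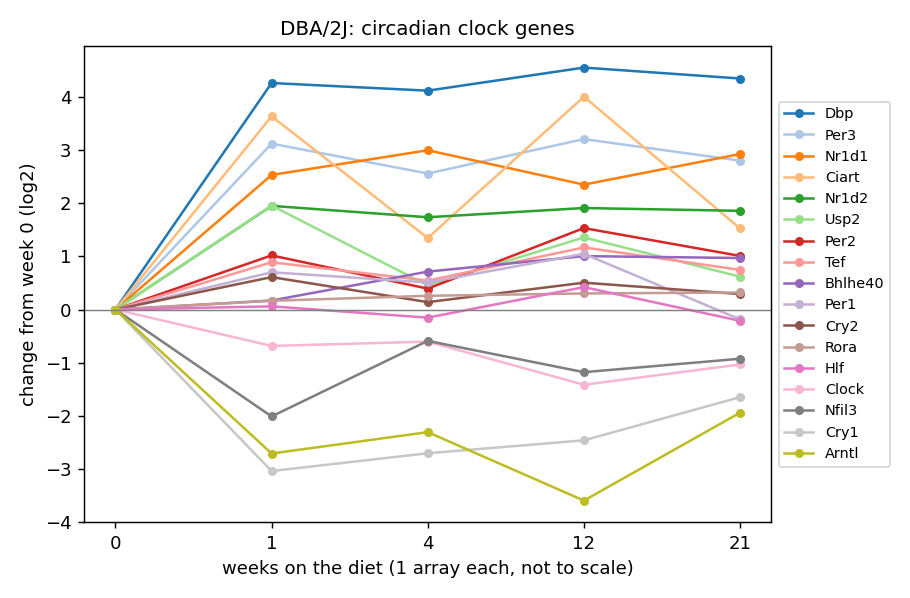
Change from week 0 (log2, y axis) of the 17 clock genes tested, at week 0 and weeks 1, 4, 12 and 21 of the diet (x axis), 1 line per gene and 1 D2 array per week. Dbp, Per3, Nr1d1, Ciart and Nr1d2 lie above 1 and Arntl and Cry1 below -1 at every fed week.

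Genes of cholesterol synthesis and uptake were low at weeks 1, 4 and 21 and high at week 12. All 20 genes tested had a mean change below 0, as did 5487 of all 11059 genes. None passed, and 1 lower had an unadjusted p under 0.05 (5%, near the 4.77% of all genes). The median changes were -1.80, -1.68, 0.926 and -1.96 at weeks 1, 4, 12 and 21, against 0.0147, 0.0172, -0.0188 and 0.00975 for all genes. Week 12 was thus on the other side of week 0 from the other weeks. Only 2 of the 20 genes lay below week 0 at all 4 (10%, against 26.4% of all genes).

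Sqle, squalene epoxidase, had deposited signals of 21.1, 16.9, 696 and 17.3 in fed livers, against 201 at week 0. Cyp51, which removes a methyl group from lanosterol, had 24.8, 21.7, 569 and 24.6 in fed livers, against 323 at week 0. Their fed arrays fall on both sides of week 0, and the changes were -2.54 ± 1.60 for Sqle (limma adjusted p = 0.606) and -3.00 ± 1.47 for Cyp51 (limma adjusted p = 0.481). Idi1, Msmo1 and Fdps, which act between mevalonate and cholesterol, had log2 signals of 10.43, 11.14 and 11.06 at week 12, against 9.23, 9.85 and 10.02 at week 0. Together with Sqle and Nnmt they had the largest SD among the fed D2 arrays of all genes tested.

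A fit without the D2 array of week 12 is given only as a description, since that array is the one that went the other way in these genes. There the changes were -3.16 for Nsdhl, an enzyme that takes carbon off the sterol ring, -3.78 for Sqle and -1.91 for Hmgcs1, which makes the precursor of mevalonate. These 3 were the lower ones among the 10 genes called in that fit. Hmgcs1 was named after this was seen, and with all 4 weeks its change was -1.17 (limma adjusted p = 0.704). Its promoter is printed because it was the only one of the 16 in the table for these genes to hold the sterol regulatory element TCACNCCAC, in capitals, which occurred on either strand in 1.24% of all promoters.
Hmgcs1 promoter, chr13:119690101-119690400, plus strand: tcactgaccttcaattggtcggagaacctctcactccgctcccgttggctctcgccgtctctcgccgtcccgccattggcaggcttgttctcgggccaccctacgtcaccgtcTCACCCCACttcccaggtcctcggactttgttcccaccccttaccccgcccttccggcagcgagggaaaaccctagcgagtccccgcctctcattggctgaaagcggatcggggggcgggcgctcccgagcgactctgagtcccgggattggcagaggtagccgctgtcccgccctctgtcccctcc
The promoter is from RefSeq, build GRCm38.p6.

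**Figure D3:**
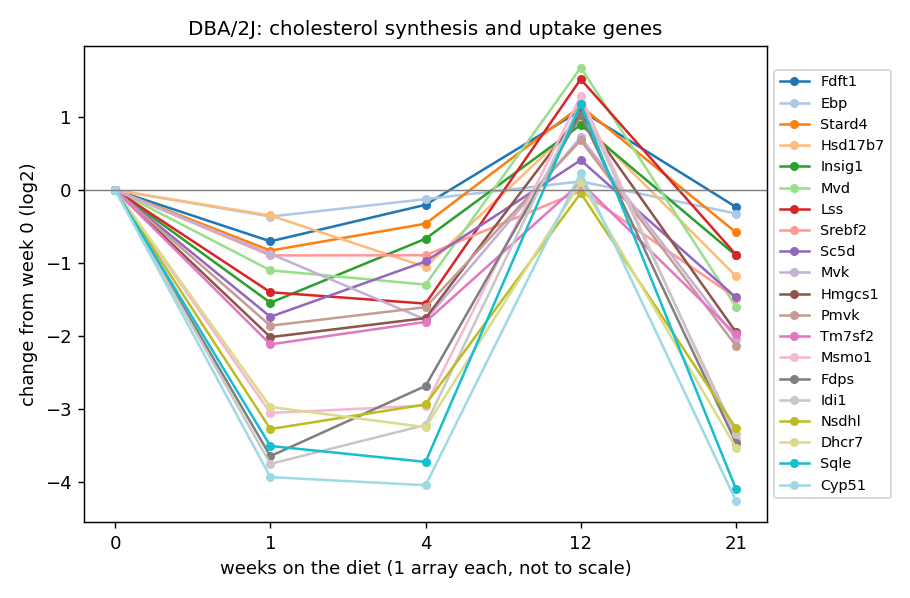
Change from week 0 (log2, y axis) of the 20 genes of cholesterol synthesis and uptake, at week 0 and weeks 1, 4, 12 and 21 of the diet (x axis), 1 line per gene and 1 D2 array per week. The list's median is -1.80, -1.68 and -1.96 at weeks 1, 4 and 21 and 0.926 at week 12.

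Of 15 LXR targets tested, Scd1 rose and none fell, against 0.118% and 0% of all genes, with a median change of 0.184. Above week 0 in all 4 fed arrays lay 5, and below it 1 (33.3% and 6.67%, against 27.4% and 26.4% of all genes). At an unadjusted p under 0.05 there were 2 higher and 0 lower (13.3% and 0%, against 6.66% and 4.77%). The mean change was positive for 10 and negative for 5, from -0.424 to 1.29. Abcg5, one of the pair of proteins that pump sterol into bile, read 9.57, 9.74, 9.03 and 10.03 in fed livers, against 8.77 at week 0 (0.82 ± 0.33; limma adjusted p = 0.392). Its partner Abcg8 differed by 0.38 and Abca1, which loads cholesterol onto apolipoprotein A-I, by 0.49. Srebf1, the LXR-driven regulator of lipogenesis, read 9.70, 10.68, 9.68 and 10.92 in fed livers, against 9.23 at week 0 (1.01 ± 0.62; limma adjusted p = 0.589).

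Of 15 bile acid synthesis genes tested none passed, and 4 lower and 0 higher had an unadjusted p under 0.05 (26.7% and 0%, against 4.77% and 6.66% of all genes). The median change was -0.0862, and 0.314 on the authors' own scale, where all genes stood at 0.434. Cyp8b1, the sterol 12-alpha hydroxylase that sets the share of cholic acid, read 8.22, 8.72, 9.81 and 5.78 in fed livers, against 11.17 at week 0 (-3.04 ± 1.95; limma adjusted p = 0.614). All fed arrays were below week 0, but week 21 was far below the others. Akr1d1, the steroid 5-beta reductase of the same pathway, was steadier, with 8.79, 8.72, 9.01 and 9.08 in fed livers, against 9.98 at week 0 (-1.08 ± 0.21; limma adjusted p = 0.101). Cyp39a1, an oxysterol hydroxylase, read 8.50, 7.40, 7.34 and 6.71 in fed livers, against 9.01 at week 0 (-1.52 ± 0.63; limma adjusted p = 0.4). Cyp7a1, the rate-limiting enzyme, read 9.71, 10.28, 10.32 and 9.76 in fed livers, against 9.14 at week 0 (0.87 ± 1.00; limma adjusted p = 0.804). Its 4 fed arrays all stood above week 0, while in B6 the change was -1.84; the difference between strains was 2.71 ± 1.42 (limma adjusted p = 0.86).

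Of 23 genes of fatty acid and triglyceride synthesis Scd1 rose, and 4 higher (Scd1 among them) and 2 lower had an unadjusted p under 0.05 (17.4% and 8.70%, against 6.66% and 4.77% of all genes). Elovl6, which lengthens palmitate, read 6.86, 7.83, 8.85 and 8.26 in fed livers, against 6.64 at week 0 (1.31 ± 0.68; limma adjusted p = 0.508). Elovl3, which makes very long chains, read 6.95, 6.29, 6.34 and 5.76 in fed livers, against 8.69 at week 0 (-2.36 ± 0.68; limma adjusted p = 0.241). Lpin1, a phosphatidate phosphatase, read 7.74, 6.68, 8.38 and 6.41 in fed livers, against 8.81 at week 0 (-1.51 ± 0.79; limma adjusted p = 0.517). Lpin1 and Acacb, the acetyl-CoA carboxylase of the mitochondrial surface, were both higher at week 12 than at the other fed weeks. The list's median change was 0.176.

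Several genes known to be induced by fasting were lower in fed arrays at each week, without passing. Pdk4, the kinase that holds back pyruvate oxidation, read 6.18, 6.03, 5.68 and 6.41 in fed livers, against 8.72 at week 0 (-2.64 ± 0.68; limma adjusted p = 0.196, and 0.0226 in the D2 arrays alone). Igfbp1, a binding protein for insulin-like growth factors that insulin represses, read 10.50, 10.75, 10.99 and 9.48 in fed livers, against 11.70 at week 0. G6pc, glucose-6-phosphatase, read 10.69, 11.21, 10.24 and 10.41 in fed livers, against 11.54 at week 0. Irs2, an insulin receptor substrate, read 5.88, 6.90, 6.67 and 6.34 in fed livers, against 7.397 at week 0. These 4 lay below week 0 in every fed array, as did 26.4% of all genes. Pdk4 belongs to the list of fatty acid oxidation and PPAR-alpha targets, and the others to the gluconeogenesis and fasting list. In that latter list 12 genes had a negative mean change and 5 a positive one, up to 0.664.

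Of the 17 gluconeogenesis and fasting genes tested, 6 lay below week 0 in all 4 fed arrays and 2 above (35.3% and 11.8%, against 26.4% and 27.4% of all genes), 3 lower had an unadjusted p under 0.05 (17.6%, against 4.77%), and the median change was -0.191 (0.236 on the authors' own scale). Of the 10 genes of glycolysis and glucose uptake, 5 lay above in all 4 and 1 below (50% and 10%, against 27.4% and 26.4% of all genes). Gckr, the regulator of glucokinase, read 10.14, 9.86, 10.11 and 10.14 in fed livers, against 9.42 at week 0 (0.64 ± 0.17; limma adjusted p = 0.209). Pgk1, a glycolytic kinase, went the other way at -0.50 ± 0.16 (limma adjusted p = 0.281). Of 29 genes of fatty acid oxidation and PPAR-alpha targets, 11 lay above in all 4 and 6 below, with a median of 0.059; at 37.9% and 20.7% these shares were near the 27.4% and 26.4% of all genes. The feeding state at collection is not given in the labels, and its part was not tested.

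Of 14 lipid droplet and lipolysis genes tested, 7 lay below week 0 in all 4 fed arrays and 2 above (50% and 14.3%, against 26.4% and 27.4% of all genes), none passed, and the median change was -0.333 (0.0463 on the authors' own scale). Fitm1, a protein of lipid droplet formation, read 2.44, 2.59, 4.86 and 2.77 in fed livers, against 5.68 at week 0 (-2.51 ± 0.91; limma adjusted p = 0.34). It was dim, with deposited signals of 4.05, 4.32, 29.4 and 6.73 in fed livers, against 36.2 at week 0. Plin5, a droplet coat protein of oxidative tissue, had deposited signals of 760, 261, 264 and 332 in fed livers, against 816 at week 0 (-1.52 ± 0.75 on the log2 scale; limma adjusted p = 0.483). G0s2, an inhibitor of the lipase ATGL, read 9.24, 9.22, 9.22 and 9.65 in fed livers, against 10.38 at week 0 (-1.05 ± 0.60; limma adjusted p = 0.56). Plin2, the main droplet coat of the liver, differed by -0.32.

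**Figure D4:**
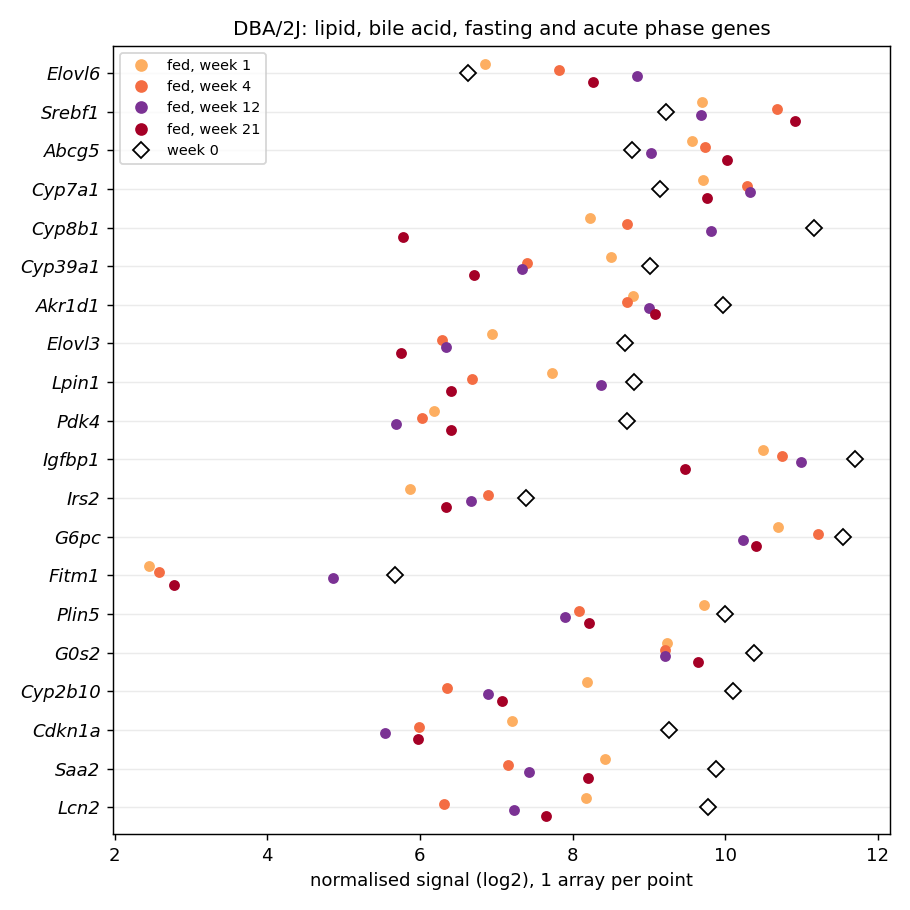
Normalised log2 signal (x axis) of 20 genes of lipid, bile acid, glucose and acute phase metabolism with the growth arrest gene Cdkn1a (rows), 1 point per array; circles are the fed D2 arrays and diamonds the week 0 array. Fed values of Cyp8b1 range from 5.78 to 9.81, all below 11.17 at week 0, and no gene shown passed the test over all arrays.

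Of 27 drug-metabolising cytochromes P450 tested, 12 lay below week 0 in all 4 fed arrays and 1 above (44.4% and 3.70%, against 26.4% and 27.4% of all genes), none passed, and the median was -0.155 (0.0595 on the authors' own scale). Cyp2b10, the marker gene of the receptor CAR, read 8.19, 6.36, 6.90 and 7.08 in fed livers, against 10.10 at week 0 (-2.97 ± 0.75; limma adjusted p = 0.194). Cyp3a16 and Cyp3a44, higher in females, read 7.96 and 9.58 at week 12, nearer to 7.17 and 9.59 at week 0 than at the other fed weeks. Cyp2c54 differed by -0.91.

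Of 23 acute phase genes tested, whose products the liver makes under inflammation, 12 lay below week 0 in all 4 fed arrays and 1 above (52.2% and 4.35%, against 26.4% and 27.4% of all genes), with a median of -0.134 (0.0851 on the authors' own scale) and none passing. At an unadjusted p under 0.05 there were 0 lower and 1 higher (0% and 4.35%, against 4.77% and 6.66% of all genes). Saa2, a serum amyloid A, read 8.42, 7.15, 7.43 and 8.20 in fed livers, against 9.88 at week 0 (-2.08 ± 1.38; limma adjusted p = 0.63). Saa1 differed by -1.69, and Lcn2, the iron-siderophore binder lipocalin 2, read 8.18, 6.32, 7.23 and 7.65 in fed livers, against 9.77 at week 0 (-2.43 ± 1.60; limma adjusted p = 0.629). The growth arrest gene Cdkn1a, the cell cycle inhibitor p21, read 7.20, 5.99, 5.54 and 5.97 in fed livers, against 9.26 at week 0 (-3.09 ± 0.97; limma adjusted p = 0.271). With Ccng2 it was 1 of 2 among 12 p53 and growth arrest genes at least 2-fold below week 0 in all 4 fed arrays (0.552% of all genes). Of the 12, 5 lay above week 0 in all 4 fed arrays and 4 below (41.7% and 33.3%, against 27.4% and 26.4% of all genes). Their median change was 0.0388. Gadd45a, of the same list, went the other way at 1.92 ± 0.91 (limma adjusted p = 0.465).

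No marker of another cell type passed in D2 livers. Since only 0.118% of all genes passed, the lack of a call says little about these markers. In these bulk samples fewer cells of a type cannot be told apart from less RNA per cell. Of 22 macrophage and Kupffer cell markers none passed, 5 lay above week 0 in all 4 fed arrays and 3 below (22.7% and 13.6%, under the 27.4% and 26.4% of all genes), and the median change was 0.0798. Their summed deposited signal was 3520 to 5820 on fed arrays, against 3350 on the dimmer week 0 array, and 3 of 25 with a probe set stayed under 15 on all D2 arrays. Cd68, a lysosomal protein of macrophages, read 6.42, 5.80, 5.88 and 6.14 in fed livers, against 5.22 at week 0 (0.84 ± 0.91; limma adjusted p = 0.791). Gpnmb, a glycoprotein of lipid-laden macrophages, had deposited signals of 8.08, 6.45, 4.42 and 15.02 in fed livers, against 3.20 at week 0. In B6 the same list had a median change of 1.43, and the D2 minus B6 difference passed for 0 of its 22 genes, with a median of -1.31.

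The 6 MHC class II genes tested, which present antigen on macrophages, dendritic and B cells, had a median change of 0.746, and 4 of them lay above week 0 in all 4 fed arrays (66.7%, against 27.4% of all genes). H2-Ab1 read 7.13, 6.58, 7.46 and 7.71 in fed livers, against 6.37 at week 0 (0.85 ± 0.94; limma adjusted p = 0.799), and H2-Aa differed by 0.77. Week 4 was lowest of the fed weeks in both. Csf3r, the receptor for granulocyte colony-stimulating factor, read 5.31, 5.003, 4.77 and 5.42 in fed livers, against 2.14 at week 0 (2.98 ± 0.58; limma adjusted p = 0.0992, and 0.0378 in the D2 arrays alone). Its week 0 signal was 2.83, and its change was 0.163 with a floor of 32. Of the other neutrophil markers tested, the granule gene Ngp read 4.34, 4.54, 4.75 and 4.20 in fed livers, against 5.11 at week 0, and S100a8 read 4.604, 4.93, 4.07 and 5.63 in fed livers, against 4.11 at week 0; both were named after their values were seen. S100a9, the partner of S100a8, read 4.16, 4.93, 5.03 and 5.28 in fed livers, against 3.35 at week 0. Of the 11 neutrophil markers with a probe set 4 could be tested and 5 stayed under 15 on all D2 arrays.

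Of 25 stellate cell and matrix genes, 11 lay below week 0 in all 4 fed arrays and 3 above (44% and 12%, against 26.4% and 27.4% of all genes), with a median of -0.249 (0.224 on the authors' own scale) and none passing. Col3a1, a fibrillar collagen, read 7.38, 7.45, 6.68 and 7.32 in fed livers, against 8.17 at week 0 (-0.96 ± 0.68; limma adjusted p = 0.657), and Col1a2 differed by -0.89. Des, the filament protein desmin of stellate and muscle cells, read 5.04, 3.96, 3.28 and 4.67 in fed livers, against 5.70 at week 0. Acta2, the smooth muscle actin of activated stellate cells, went the other way, with 6.66, 5.84, 6.56 and 6.84 in fed livers, against 5.61 at week 0 (0.87 ± 0.36; limma adjusted p = 0.403), and so did Lrat, which stores retinol, at 0.81 ± 0.30 (limma adjusted p = 0.345); both were named after their values were seen.

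Of 17 cell cycle genes, 5 lay above and 7 below in all 4 (29.4% and 41.2%, against 27.4% and 26.4% of all genes). Pola2, a subunit of DNA polymerase alpha, read 3.99, 4.81, 5.01 and 4.96 in fed livers, against 2.17 at week 0 (2.52 ± 0.53; limma adjusted p = 0.122), while Rrm2 and Top2a, of nucleotide supply and DNA untangling, differed by -1.22 and -1.06. Atf3, a stress-induced transcription factor, read 4.44, 5.46, 5.11 and 5.18 in fed livers, against 3.22 at week 0 (1.83 ± 0.56; limma adjusted p = 0.259). The week 0 deposited signals of Pola2 and Atf3 were 2.91 and 7.10. Under the alternatives run, the smallest changes of Pola2, Atf3 and Top2a were 0, 0.155 and -8.88e-16.

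The summed deposited signal of 9 exocrine pancreas markers was 276 to 666 on fed arrays, against 432 at week 0, and that of 6 blood cell markers was 135 to 226, against 175. After normalisation 2 of the 3 exocrine pancreas markers tested lay below week 0 in all 4 fed arrays (66.7%, against 26.4% of all genes; median of the list -0.996). These 2, Cela3b and Prss2, had deposited signals of at most 33.6 on the D2 arrays. Cela1, at 213 to 604, lay on both sides of week 0 (-0.24). Of the 3 blood cell markers tested 1 lay above and 2 below (33.3% and 66.7%, against 27.4% and 26.4% of all genes). The summed signal of 6 adipocyte markers was 4050 to 7310, against 5640, and 4 of these stayed under 15 on all D2 arrays. Most of this sum was the single gene Car3, at 3906 to 7207 on fed arrays, against 5576 at week 0. Fabp4, the other adipocyte marker tested, had deposited signals of 80.9 to 124.6, against 51.6 at week 0. Of 16 endothelial markers, 6 lay above week 0 in all 4 fed arrays and 2 below (37.5% and 12.5%, against 27.4% and 26.4% of all genes, with a median of 0.16), and their summed signal was 1860 to 2410, against 1330 on the dimmer week 0 array. The 9 lymphocyte markers tested had medians of -0.347, 0.106, 0.356 and 0.728 at weeks 1, 4, 12 and 21, and 10 of 17 with a probe set stayed under 15; their summed signal was 496 to 872, against 341 at week 0. For 8 cholangiocyte markers, of which 3 were tested, it was 109 to 312, against 77.9. These last 3 sums lay above the dimmer week 0 array on every fed array. So did the sums of hepatocyte and macrophage markers given above. The same held for neutrophil markers (135 to 223, against 105) and for stellate cell and matrix genes (3310 to 4130, against 3010). The part of these sums in the other results was not tested.

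Of the remaining lists, the median change was 0.0207 for 20 interferon-induced genes (0.778 in B6, with no gene passing for the difference), -0.192 for 20 genes of the unfolded protein response (0.203 on the authors' own scale), 0.129 for 19 genes of the NRF2 pathway and glutathione, and 0.0305 for 16 lysosomal genes. The 15 genes of apolipoproteins and VLDL assembly, the 21 of the respiratory chain, the 17 of complement and the 13 ribosomal proteins had medians between -0.0316 and 0.0382. Of 15 bile and sterol transporters, 3 higher and 0 lower had an unadjusted p under 0.05 (20% and 0%, against 6.66% and 4.77% of all genes). No gene of these lists passed, where 0.118% of all genes did.

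**Figure D5:**
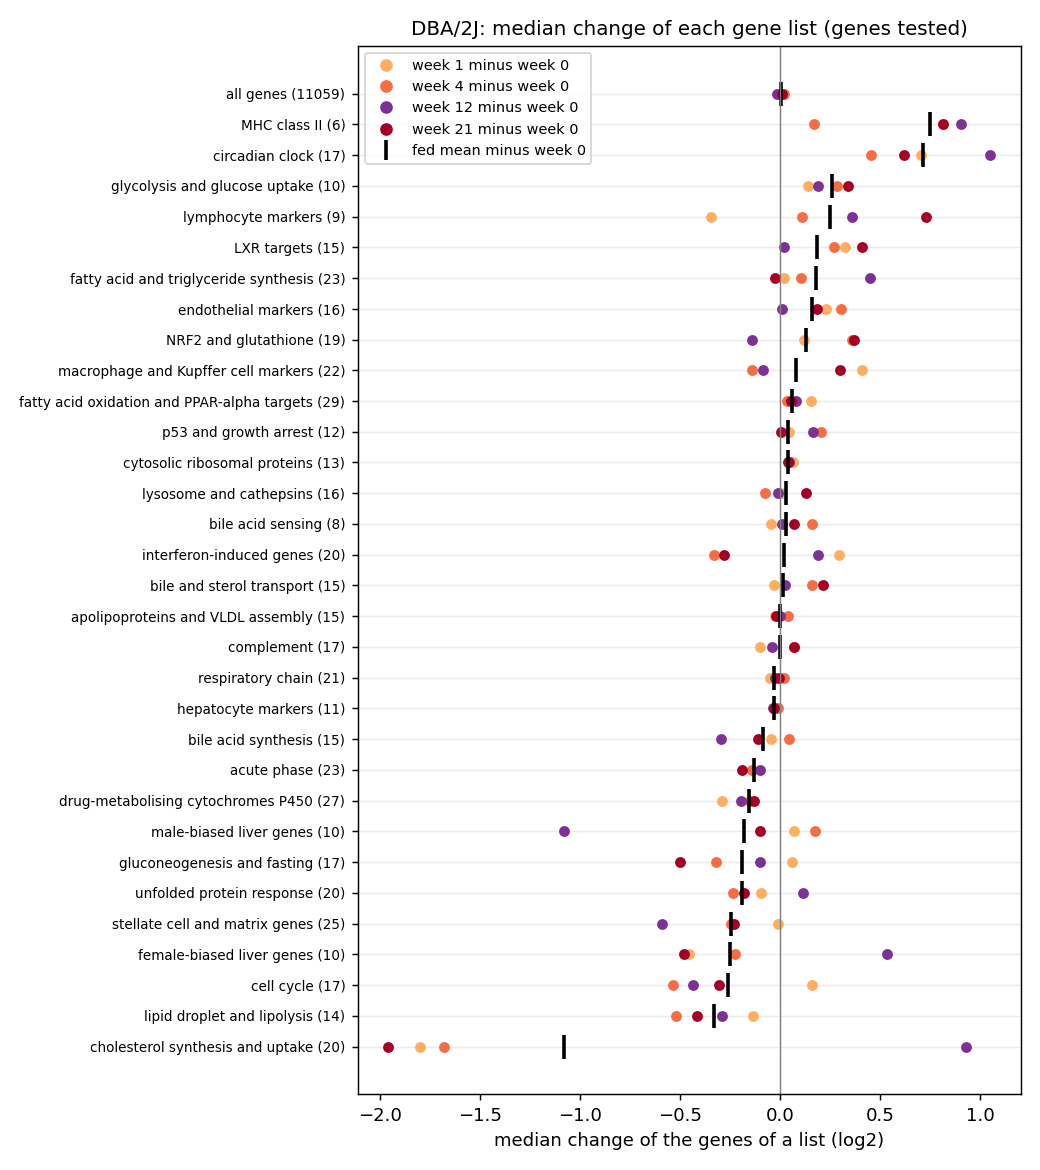
Median change from week 0 (log2, x axis) of the genes tested in each list of at least 5 genes (rows, number of genes in brackets) and of all genes; circles are single fed weeks and bars the fed mean. MHC class II (0.746) and the clock (0.715) are highest and cholesterol synthesis (-1.08) lowest, with its week 12 value at 0.926; list medians near 0 change sign on the authors' own scale.

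Among the fed D2 arrays themselves, a slope on log2 of the week asks what changed with time on the diet, without using week 0. No gene passed by limma (0% of 11059), with 442 at an unadjusted p under 0.05. The smallest p was that of Mme, the membrane peptidase neprilysin, singled out for that, with deposited signals of 15.2, 39.7, 113 and 178 at weeks 1, 4, 12 and 21, against 15.8 at week 0, and a slope of 0.72 ± 0.09 per doubling of weeks (limma adjusted p = 0.856). Nnmt, which methylates nicotinamide, varied with no order in time, with 555, 20.2, 203 and 26.7 in fed livers, against 719 at week 0. Weeks 4 and 21 read alike, and weeks 1 and 12 lay nearer to week 0. Cyp17a1, a steroid hydroxylase, was likewise higher at weeks 1 and 12, with log2 signals of 8.89, 6.51, 8.02 and 5.86 in fed livers, against 9.44 at week 0.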

How the data were processed

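Liver RNA of D2 and B6 mice was measured on 10 arrays. The authors deposited linear signal intensities, computed with GCOS per the submitters' processing notes, which give no version. Of 45101 probe sets, 64 controls were left out, 34945 had one gene symbol in GEO's platform annotation, 932 several and 9160 none; only the first were used, and they covered 18193 genes.

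Arrays were quantile normalised, and 1.05, the 10th percentile of the deposited intensities, was added to each signal before taking log2. Each gene was its probe set with the highest mean, kept above the 50th percentile of probe set means (3.74), which left 11059 genes. limma 3.58.1 in R 4.3.3 (lmFit, eBayes with trend) fitted 4 group means over 10 arrays (6 residual degrees of freedom), and a slope on log2 week per strain over the 8 fed arrays (4 degrees of freedom). P-values were adjusted by Benjamini-Hochberg with a threshold of 0.05. They measure the spread between single pools, time included, and the number of arrays limits the precision.

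The members and the 36 gene lists (591 of 671 entries with a probe set) were chosen with earlier results of these data known. The genes named are the 10 largest changes that passed in each direction, filled up by p; the members of each list that passed and up to 4 others by size; a fixed list of liver genes; genes that passed for the strain difference or slope; and the 5 with the largest SD among fed D2 arrays. Not every gene allowed is named. Promoters were matched by symbol to RefSeq (GRCm38.p6). Alternatives were the scaling, pseudocount, floor, filter, probe set rule, variance model, the D2 arrays alone, a week term and leaving out each array except D2 week 0. The scripts were tested on simulated data. Same-week deviations of the D2 and B6 arrays correlated at -0.00948, 0.00703, 0.278 and 0.0887 at weeks 1, 4, 12 and 21. Those of unlike weeks correlated at -0.183 to 0.166, so a deviation shared by both strains at week 12 is not excluded. Week was no block in the main comparison, and a fit with week as a block was run for the strain difference only.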

Additional observations from a re-analysis of the deposited data

Results flagged for a closer look

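In groups of 4, the gap of one fed D2 array to the nearest other was compared with the range of the 4, for 85 genes named and 31 lists, 116 in all; in 15 the ratio exceeded Dixon's critical value for 4 samples, where chance gives about 1 in 20 for items chosen without regard to these arrays. That rate does not apply to all items here, since Sqle, Idi1 and Msmo1 were named for their large SD among the same arrays and the sterol genes move together with their list. The sterol synthesis genes among them were high at week 12: Cyp51 at 8.98 against 4.48 to 4.80 at the other fed weeks, Sqle at 9.27, Dhcr7 at 9.55, Nsdhl at 9.45, Idi1 at 10.4 and Msmo1 at 11.1 (log2 signal). The median change of the cholesterol synthesis list was 0.926 at week 12, against -1.96 to -1.68 at the others. Fitm1 was also highest at week 12, at 4.86, while the collagen Col3a1 was lowest there, at 6.68. At week 1, Emd was lowest at 5.5, the apolipoprotein gene Apoa4 was highest at 11.4 and the ribosomal protein list had its highest median change, 0.0649. At week 4, Gckr was lowest at 9.86 and the MHC class II list had its lowest median change, 0.17. At week 21, G0s2 was highest at 9.65.

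The response of Clcn5 differed between strains by 3.67 (log2, D2 minus B6), tested as the difference itself. It was read by 1 of 4 probe sets, and the week 0 signal was 3.32 in D2, against 7.37 in B6.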

How the results depend on the processing

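The number of genes that passed for fed D2 livers against week 0 (13) was 45 at the authors' own scale, 2 with a pseudocount of 16, 186 with a floor of 32, 8 without a filter on low values, 38 without a trend in the variance and 4 with a slope on log2 week added. It was 6 to 21 when one array other than D2 week 0 was left out, 6 without week 21 of D2, 7 without week 4 of D2 or week 21 of B6, 20 without week 4 of B6 and 21 without week 12 of B6. It stayed within 1.5 times of 13 under the other settings (9 to 17). All 13 genes had the same sign in every setting in which they were tested; Wdr90, Rnf39, Cabin1, Emd, Slc5a6 and Dbp lost their call most often, in 8 to 11 settings each. The strain difference (1 gene) gave 122 genes with a floor of 32, and 0 with a pseudocount of 16, with all probe sets of a gene averaged, without the variance trend and with week as a replicate block, where 707 genes had an unadjusted p under 0.05; leaving out one array gave 0 to 1. The slope on week (0 genes) gave 1, Mme, in a fit of the D2 arrays alone, also when these were normalised alone. It gave 0 to 1 when one array was left out. With all probe sets averaged, the change of St3gal1 was 0.00513 and that of Prmt3 was 0.212. The causes were not tested. Signals under 15 limit what can be said of the 11 dim genes: no detection calls were used, and their folds rest on 1 week 0 array.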
